A study of Mus musculus with 8 samples.

Results

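The signals that fat tissue sends to other organs, and the receptors that read them, were followed across inguinal white adipose tissue of control mice and of mice that lack the SUMO protease gene Senp2 in adipocytes (Senp2-aKO). The genes were leptin (Lep) and its receptor (Lepr), adiponectin (Adipoq) and its receptors (Adipor1 and Adipor2), resistin (Retn), the NAD-forming enzyme also known as visfatin (Nampt), chemerin (Rarres2), lipocalin-2 (Lcn2) and angiopoietin-like 4 (Angptl4). The list was drawn up by name, with earlier results of these data known, and its probes are all non-control probes whose RefSeq accession belongs to 1 of these genes. This gave 14 probes for 10 genes, of 55681 probes on the array and 14730 genes tested. A single probe read 8 of the genes, 2 probes read Retn and 4 read Lepr.

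Control mice had the genotype Senp2flox/flox, in which Senp2 is flanked by loxP sites on both alleles. Senp2-aKO mice had the genotype Senp2flox/flox ; Adipoq Cre, so that the promoter of Adipoq, itself among the genes described here, drives the recombinase in adipocytes, while the other cells of the fat pad keep the gene. All mice began a high-fat diet with sucrose (58 kcal% fat) at 8 weeks of age, ate it for 12 weeks and were housed at 22 to 24 °C. Each group had 4 samples, each on its own Agilent array with 1 colour channel. The labels do not give the sex of the mice, nor state that each sample is a separate mouse, so p-values measure the spread between these samples.

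Adipokines are proteins that adipocytes and other cells of fat release into the blood or to their neighbours. Leptin reports the size of the fat store to the brain through a receptor that signals by JAK2 and STAT3, and its release grows with adiposity. Adiponectin acts on liver, muscle and fat through receptors that raise fatty acid oxidation. Resistin, chemerin, lipocalin-2, Nampt and Angptl4 link fat to inflammation, immune cell recruitment, NAD supply and the clearance of blood triglycerides.

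The study behind these arrays addresses the transcription factor C/EBPβ, and C/EBP factors are known to bind near the start of the leptin gene, so the bases before the start sites were read for a C/EBP core. The window was the 250 bases before the annotated start, from RefSeq in build GRCm38.p6, which held 8 of the 10 genes (10 windows, since Lepr and Adipor1 have 2 each). Rarres2 and Angptl4 were not among them. The 3 genes shown moved in the array data described further on and differ in this motif. Capitals mark the C/EBP core TTNNGNAA (N is any base, searched on both strands), and each sequence runs 5′ to 3′ on the strand of its gene. Lep lies on the plus strand (chr6:29059971-29060220), Lcn2 on the minus strand (chr2:32387740-32387989) and Nampt on the plus strand (chr12:32820085-32820334).
Lep: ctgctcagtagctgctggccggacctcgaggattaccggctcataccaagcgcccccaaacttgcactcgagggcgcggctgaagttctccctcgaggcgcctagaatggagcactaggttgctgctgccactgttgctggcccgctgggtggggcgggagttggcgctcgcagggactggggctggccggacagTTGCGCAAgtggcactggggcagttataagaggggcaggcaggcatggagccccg
Lcn2: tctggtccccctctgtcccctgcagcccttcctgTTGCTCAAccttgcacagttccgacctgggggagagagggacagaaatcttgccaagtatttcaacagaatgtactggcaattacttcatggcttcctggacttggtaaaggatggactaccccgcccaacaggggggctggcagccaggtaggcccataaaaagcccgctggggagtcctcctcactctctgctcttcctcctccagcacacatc
Nampt: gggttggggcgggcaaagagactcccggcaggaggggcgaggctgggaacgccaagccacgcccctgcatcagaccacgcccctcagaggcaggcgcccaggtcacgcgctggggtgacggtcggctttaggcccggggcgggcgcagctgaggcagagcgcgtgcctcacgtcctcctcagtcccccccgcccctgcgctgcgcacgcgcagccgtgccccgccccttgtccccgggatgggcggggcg
In Lep the match TTGCGCAA lies 55 to 48 bases before the start and reads the same on both strands. In Lcn2 the match TTGCTCAA lies 216 to 209 bases before the start. Nampt has no match and holds 5 copies of the Sp1 box GGGCGG or its complement. The box also lies in Lep (98 to 93 bases before the start), in Lcn2 (94 to 89) and in windows of Lepr and Adipor1. Adipoq (81 to 74 bases before its start) and Adipor2 (225 to 218) also hold a C/EBP match. Such a match is common: 36.8% of all 32851 windows hold 1 or more, and 32.7% hold the Sp1 box. The TATA box letters TATAAA (12.4% of all windows) were in none of the members' windows, on either strand. A match describes letters only, and binding was not measured.

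The level of a probe is given throughout as log2 of the deposited processed signal minus the 75th percentile of its array, so that 0 is the 75th percentile, and a fold change is Senp2-aKO minus control on that scale. The 75th percentile itself was 408 to 446 in controls and 324 to 382 in Senp2-aKO arrays. No spot was saturated, and the rows of the slide held 1 group each, which means that effects of group and of slide row cannot be told apart. Senp2 itself was at 2.46, 2.46, 2.52 and 2.37 in controls and at 2.19, 2.12, 2.20 and 2.22 in Senp2-aKO samples. All 4 Senp2-aKO values were below the controls, with a log2 fold change of -0.27 with SE 0.08 (limma adjusted p = 0.0507), which just missed the threshold of 0.05 (0.0444 under quantile normalisation). Senp2 passed in 5 of 8 other settings. It passed in 1 of 8 fits that leave out an array (limma adjusted p = 0.0713 to 0.134 in the rest). In whole tissue, fewer cells of a type and less RNA per cell cannot be told apart, for this gene and for all that follow. The skeletal muscle marker list, 8 genes, averaged -1.19 to 1.70 in controls and 3.98 to 5.57 in Senp2-aKO samples, and all 8 genes rose, as did 5 of 5 brown adipocyte markers (5 of 8 and 3 of 5 without control 1). The list of 20 adipocyte genes averaged 6.24 to 6.41 in controls and 5.85 to 6.50 in Senp2-aKO samples, with the lowest value on Senp2-aKO array 2. The part of these shifts in the results below was not tested. Values within the array, where given, set a gene against adipocyte genes only. They carry no test and do not measure the part of muscle or brown adipocytes.

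Leptin mRNA fell to 27.8% of its control level, and no other gene of the 10 fell under the main scaling. Nampt, Lcn2 and Angptl4 rose, by 1.78-fold, 2.66-fold and 1.34-fold. Adiponectin, resistin, chemerin and all 3 receptor genes did not pass the test. All 10 genes were measured, with a probe well above background on all 8 arrays. Of them 4 passed at an adjusted p under 0.05 (3 higher, 1 lower), where 14.4% of all genes tested passed (7.29% higher and 7.12% lower). The same 4 genes had groups that did not overlap, against 26.3% of all genes (11.2% with Senp2-aKO above and 15.1% below). The median log2 fold change was 0.09 over the 10 genes and -0.02 over all genes. Which genes pass depends on the scaling between arrays for the most abundant of them: under quantile normalisation and with no scaling, Angptl4 did not pass and Rarres2 passed as lower. With no scaling, the median of all genes moved to -0.29, and the split of calls over all genes turned from 1074 higher and 1049 lower to 653 higher and 4831 lower.

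**Figure D1:**
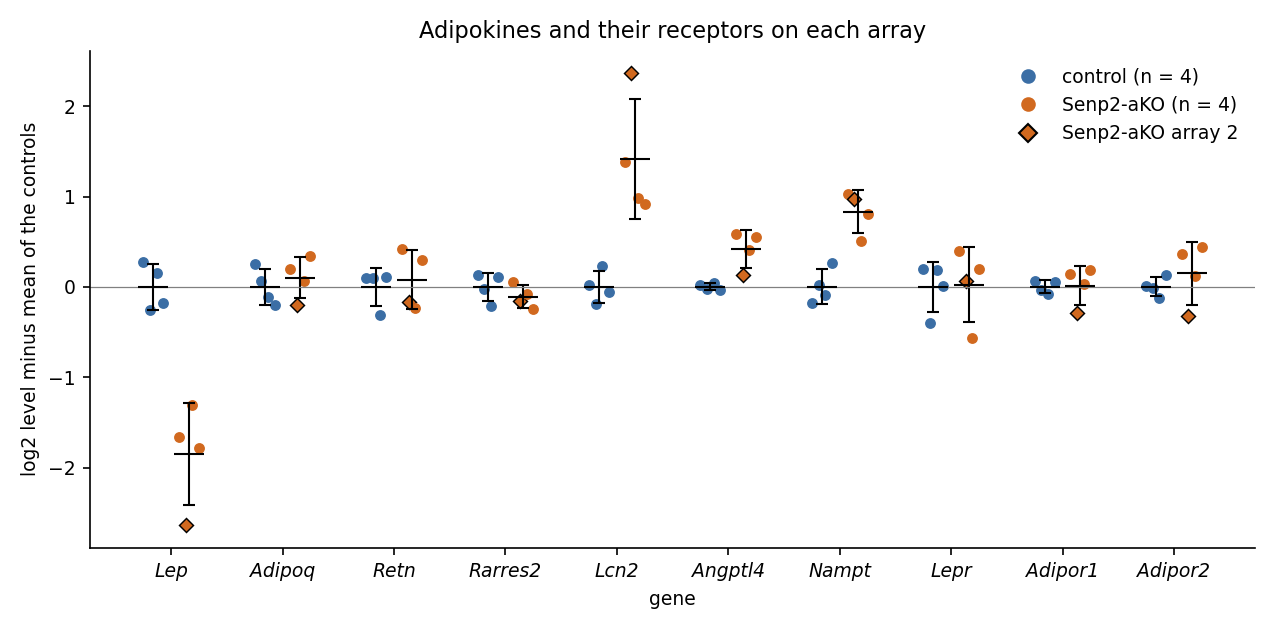
Log2 level of each gene on each array (y axis, minus the mean of the 4 control arrays for that gene), with controls in blue and Senp2-aKO arrays in orange, bars for the mean and the SD (n = 4 per group) and a diamond for Senp2-aKO array 2. Lep lies below all controls on all 4 Senp2-aKO arrays, Lcn2, Angptl4 and Nampt lie above, and the other 6 genes overlap.

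Leptin was the gene of the 10 that fell. Its probe (A_52_P374882, named by NM_008493) is printed in 10 spots per array, all of which were used, and the SD between spots of 1 array was at most 0.0641 in log2. The level was 5.53, 4.996, 5.40 and 5.07 in controls 1 to 4 and 3.59, 2.61, 3.94 and 3.46 in Senp2-aKO samples 1 to 4. All 4 Senp2-aKO samples lay below every control, and Senp2-aKO sample 2 was lowest. Before any scaling the processed signal was 18813, 13102, 18804 and 13853 in controls and 3911, 2195, 5868 and 3624 in Senp2-aKO samples, which do not overlap either. The mean went from 5.25 ± 0.25 to 3.40 ± 0.56 (SD, n = 4 per group), a log2 fold change of -1.85 with SE 0.27 (limma adjusted p = 0.00761). That is 27.8% of the control level (95% interval 17.9% to 43.0%). The call held in all 8 fits that leave out an array and in 8 of 8 other settings. Without Senp2-aKO array 2 the log2 fold change was -1.59 (limma adjusted p = 0.00652).

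The fall of leptin was set against adiponectin on the same array, where a scaling common to the whole array cancels. Lep minus Adipoq was -3.35, -3.69, -3.11 and -3.35 in controls and -5.23, -5.82, -4.75 and -5.51 in Senp2-aKO samples. Every Senp2-aKO value was below every control, by 1.95 log2 units on average. Against the mean of the 20 adipocyte genes the difference in Lep was -1.77, again without overlap. Leptin was thus lower relative to other adipocyte transcripts of the same sample as well. No share over all genes was computed for overlap on such within-array differences.

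Adiponectin, the most adipocyte-restricted of these hormones, was at 8.88, 8.69, 8.51 and 8.42 in controls and 8.82, 8.43, 8.69 and 8.97 in Senp2-aKO samples. The groups overlapped, with the highest and nearly the lowest values both among Senp2-aKO samples. The mean was 8.62 ± 0.20 for control and 8.73 ± 0.23 for Senp2-aKO samples (SD, n = 4), a log2 fold change of 0.10 with SE 0.15 (limma adjusted p = 0.665). The 95% interval runs from 84.9% to 136% of the control level. The sign turned to -0.11 under quantile normalisation.

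Resistin, which in mice is made by adipocytes, was read by 2 probes. The probe that stands for the gene (A_55_P1984806) gave 9.003, 9.01, 8.59 and 9.02 in controls and 9.33, 8.74, 8.67 and 9.20 in Senp2-aKO samples. Control 3 was low, and the groups overlapped. The log2 fold change was 0.08 (SE 0.18, limma adjusted p = 0.790), with an interval of 79.3% to 141% of control. The second probe (A_55_P2428514) gave 8.69, 8.67, 8.36 and 8.62 in controls and 8.998, 8.53, 8.45 and 9.03 in Senp2-aKO samples, with a log2 fold change of 0.17 with SE 0.16 (limma adjusted p = 0.545 over all probes, of which 9.83% passed). The shift between the probes had an exact permutation p of 0.114 (adjusted 0.152 over 4 probe pairs, two-sided). The sign for the gene turned to -0.11 under quantile normalisation.

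Chemerin, a chemoattractant for cells that carry Cmklr1, was at 7.75, 7.59, 7.40 and 7.73 in controls and 7.67, 7.46, 7.54 and 7.37 in Senp2-aKO samples. The groups overlapped in all but the lowest Senp2-aKO value. The log2 fold change was -0.11 (SE 0.11, limma adjusted p = 0.544), or 92.8% of control (95% interval 77.7% to 111%). Under quantile normalisation it was -0.35 and passed (limma adjusted p = 0.0489), and with no scaling it was -0.37 (limma adjusted p = 0.0323).

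Lipocalin-2, an iron-siderophore carrier that adipocytes, neutrophils and inflamed epithelia release, was at 0.16, -0.06, 0.36 and 0.08 in controls. In Senp2-aKO samples 1 to 4 it was at 1.52, 2.499, 1.12 and 1.06. All 4 lay above every control, and sample 2 was highest. The mean went from 0.13 ± 0.18 to 1.55 ± 0.67 (SD, n = 4), a log2 fold change of 1.41 with SE 0.30 (limma adjusted p = 0.0218) or 2.66-fold (95% interval 1.64 to 4.32). Without Senp2-aKO array 2 it was 1.10 (SE 0.15, limma adjusted p = 0.00812). The call ended without control 1 (adjusted p = 0.0622), control 2 (0.0575), control 4 (0.0550) or Senp2-aKO array 1 (0.0519 in limma), at log2 fold changes between 1.35 and 1.42. With the replicate number as a block in the fit it ended too (limma adjusted p = 0.0572).

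Since neutrophils carry Lcn2, their markers were read on the same arrays. Of 8 listed markers 6 were measured and 0 passed the test in limma, with 0 at an unadjusted p under 0.05 as well. Of the 6, 5 had higher means in Senp2-aKO samples, and the median log2 fold change of the list was 1.16 (0.39 without Senp2-aKO array 2). Leaving out control 2 made 1 of them pass. Their mean ran from -1.25 to -0.52 in controls, and was -0.0083, 1.60, -0.99 and -0.78 in Senp2-aKO samples 1 to 4. The summed linear level of the list was 14.8 to 36.9 in controls and 21.2 to 79.0 in Senp2-aKO samples, in units of the array's 75th percentile. Senp2-aKO array 2 was highest both in Lcn2 and in this list, and it was also highest in the lists of 4 T and 4 B lymphocyte markers. On Senp2-aKO arrays 3 and 4 the neutrophil mean lay within the control range, and Lcn2 was at 1.12 and 1.06, above all controls. Macrophage markers averaged 3.57 to 4.41 in controls and 3.89 to 4.32 in Senp2-aKO samples. Of the 7 measured, 5 had higher and 2 lower means in Senp2-aKO samples, and 0 passed in limma (3 at an unadjusted p under 0.05). Of 5 mammary epithelium markers 3 were measured, all with higher means in Senp2-aKO samples (median log2 fold change 1.70). Of these, 1 passed in limma (3 at an unadjusted p under 0.05), and 3 passed with another background correction. Their mean was -3.70 to -2.74 in controls and -2.58 to -1.02 in Senp2-aKO samples, without overlap, and their summed level 0.243 to 0.613 and 0.643 to 3.31. The part of any of these cells in the rise of Lcn2 was not tested.

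**Figure D2:**
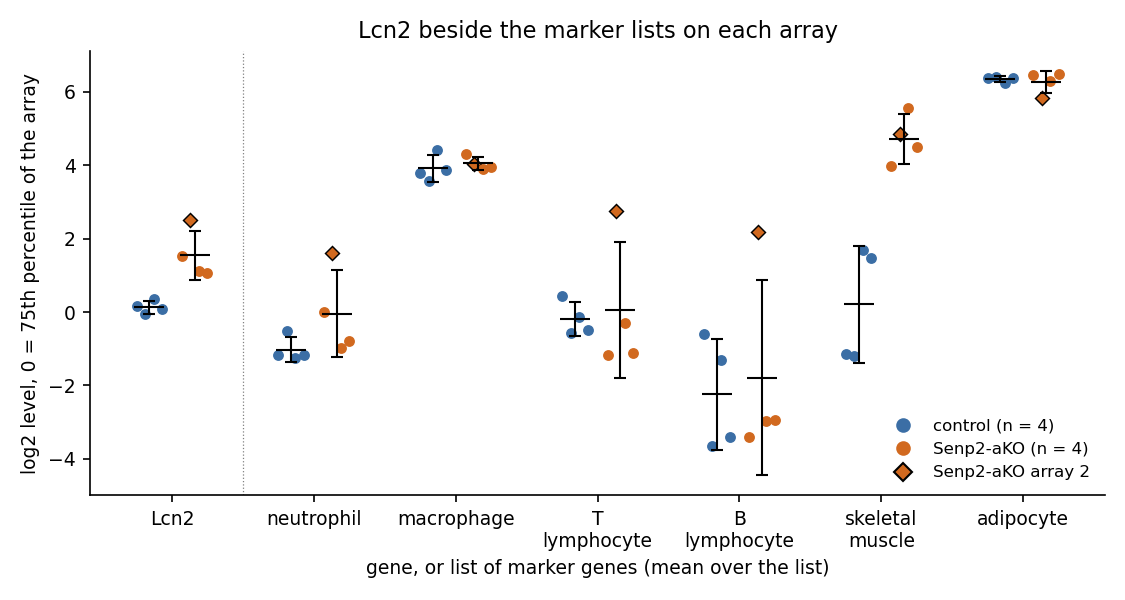
Log2 level of Lcn2 and mean log2 level of 6 marker lists on each array (y axis, 0 is the 75th percentile of the array), with controls in blue, Senp2-aKO arrays in orange, a diamond for Senp2-aKO array 2, and bars for the mean and the SD (n = 4 per group). Lcn2 is above all controls on all 4 Senp2-aKO arrays, and the neutrophil mean on Senp2-aKO arrays 1 and 2. The mammary epithelium list, whose groups did not overlap, is not drawn. The part of any of these cells in the rise of Lcn2 was not tested.

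Angptl4, an inhibitor of lipoprotein lipase that fasting, glucocorticoids and PPAR agonists are known to induce, was at 8.13, 8.08, 8.15 and 8.07 in controls and 8.69, 8.24, 8.51 and 8.66 in Senp2-aKO samples. The 4 controls lay within 0.1 of each other, and every Senp2-aKO value was above them, with sample 2 the nearest. The mean went from 8.11 ± 0.04 to 8.52 ± 0.21 (SD, n = 4), a log2 fold change of 0.42 with SE 0.11 (limma adjusted p = 0.0458) or 1.34-fold (95% interval 1.11 to 1.60). This call is the weakest of the 4. It did not pass with adjustment over all 30508 probes kept (limma adjusted p = 0.0625), and 7 of 8 fits that leave out an array ended it (adjusted p = 0.0697 to 0.108), all but the fit without Senp2-aKO array 2 (log2 fold change 0.51, limma adjusted p = 0.00978). Unscaled signals overlapped, at 110289 to 126568 in controls and 108357 to 139134 in Senp2-aKO samples, and under quantile normalisation the log2 fold change was 0.18 (limma adjusted p = 0.310). Against the mean of the adipocyte genes on the same array it was 0.50 higher, without overlap. No share over all genes was computed for this measure.

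Nampt, the rate-limiting enzyme of NAD salvage, which is also released from cells, was at 1.98, 2.18, 2.07 and 2.43 in controls and 3.20, 3.14, 2.67 and 2.97 in Senp2-aKO samples. All 4 Senp2-aKO values lay above the highest control. The mean went from 2.16 ± 0.19 to 2.995 ± 0.24 (SD, n = 4), a log2 fold change of 0.83 with SE 0.15 (limma adjusted p = 0.0132) or 1.78-fold (95% interval 1.40 to 2.25). The call held in all 8 fits that leave out an array and in 8 of 8 other settings (limma adjusted p up to 0.0468). Nampt is also made in skeletal muscle and immune cells, whose marker levels are given above.

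**Figure D3:**
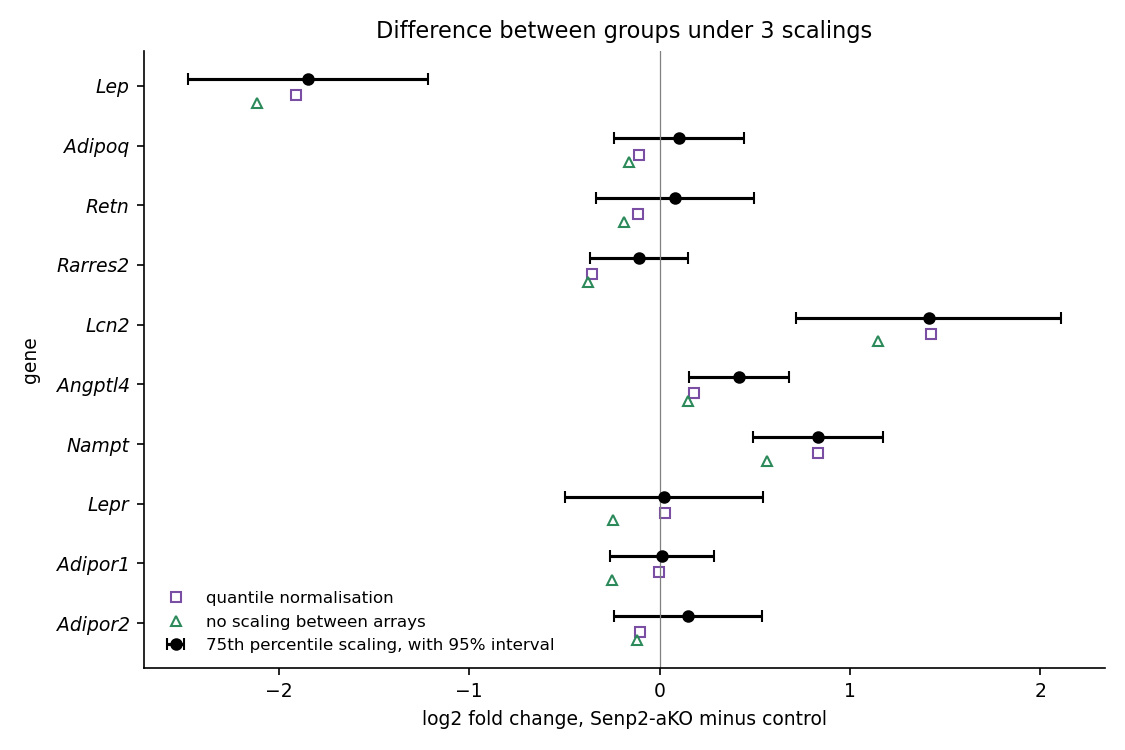
Log2 fold change of each gene, Senp2-aKO minus control (x axis), as a filled circle with its 95% interval under scaling to the 75th percentile (n = 4 arrays per group), a square under quantile normalisation and a triangle with no scaling between arrays. Lep, Lcn2 and Nampt keep their side under all 3 scalings and Angptl4 moves from 0.42 to 0.18 and 0.15, while Adipoq, Retn, Lepr, Adipor1 and Adipor2 change sign under quantile normalisation, no scaling or both.

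The genes that shift most with quantile normalisation are those at the top of the signal range. Angptl4, Adipor2, Rarres2, Adipoq and Retn lay between the 99.0th and the 99.8th percentile of all genes by level, and quantile normalisation shifted their log2 fold changes by -0.25 to -0.19. For Lep, Lepr, Adipor1, Nampt and Lcn2, at lower levels, the shift was between -0.06 and 0.02. A difference of this size is larger than the fold change of Adipoq, Adipor2 or Retn under the main scaling.

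The leptin receptor gene gave different readings by probe. The probe that stands for the gene (A_55_P2177910, NM_010704) was at 2.27, 1.68, 2.26 and 2.08 in controls and 2.47, 2.14, 1.505 and 2.27 in Senp2-aKO samples. The groups overlapped, with a log2 fold change of 0.02 with SE 0.23 (limma adjusted p = 0.953) and an interval of 70.9% to 146% of control. The sign is not settled, since it was -0.013 with another background correction and -0.24 with no scaling. The mean of the 3 kept Lepr probes gave 0.81 (SE 0.39, limma adjusted p = 0.195).

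A second probe of the same accession (A_55_P2177911) was at -3.50, -3.62, -3.47 and -3.64 in controls and -2.94, -0.45, -3.46 and -2.99 in Senp2-aKO samples. Its log2 fold change was 1.10 (SE 0.58, limma adjusted p = 0.252 over all probes), with Senp2-aKO sample 2 far above the rest and sample 3 level with the highest control. The third probe (A_55_P2192662, NM_001122899) was at -3.47, -4.15, -3.63 and -3.82 in controls and -2.89, -0.78, -3.19 and -3.02 in Senp2-aKO samples. All 4 Senp2-aKO values were above the controls, with sample 2 highest again, and the log2 fold change was 1.30 (SE 0.50, limma adjusted p = 0.137 over all probes), which did not pass. The fourth probe (A_66_P130517, NM_146146) was well above background on Senp2-aKO array 1 alone, at -4.10, and was not tested.

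The shift of the first probe relative to the third, taken within each array, was -1.27 (exact permutation p = 0.0286, two-sided, the smallest that 70 assignments allow, adjusted 0.114 over 4 pairs). Relative to the second probe it was -1.08 (exact permutation p = 0.0571, adjusted 0.114). Between the other pair of probes it was -0.19 (exact permutation p = 0.314). No pair passed after adjustment, and which transcript each probe reads beyond its accession is not settled here.

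**Figure D4:**
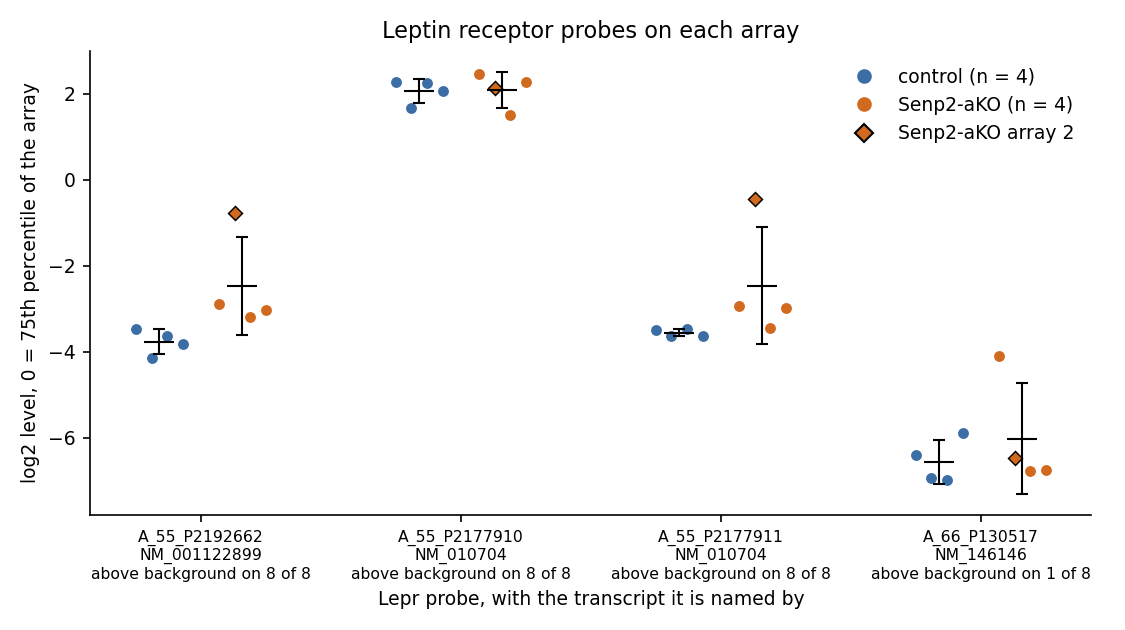
Log2 level of each of the 4 Lepr probes on each array (y axis, 0 is the 75th percentile of the array), with the RefSeq transcript that names the probe and the number of arrays on which it was well above background, controls in blue, Senp2-aKO arrays in orange, a diamond for Senp2-aKO array 2, and bars for the mean and the SD (n = 4 per group). The probe that stands for the gene overlaps between groups, and the probes of low signal are highest on Senp2-aKO array 2, except the probe above background on 1 array. Levels of different probes are not comparable.

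The adiponectin receptors gave no difference past the test. Adipor1, the more muscle-enriched receptor, was at 3.05, 2.94, 2.90 and 3.04 in controls and 3.12, 2.69, 3.01 and 3.17 in Senp2-aKO samples, with a log2 fold change of 0.01 with SE 0.12 (limma adjusted p = 0.946, 83.6% to 122% of control). Adipor2, the more liver-enriched receptor, was at 7.41, 7.39, 7.29 and 7.54 in controls and 7.77, 7.08, 7.52 and 7.85 in Senp2-aKO samples, with a log2 fold change of 0.15 with SE 0.17 (limma adjusted p = 0.584, 84.6% to 145% of control). In both genes Senp2-aKO sample 2 was below every control, and the groups overlapped. Under quantile normalisation the values were -0.0020 for Adipor1 and -0.10 for Adipor2. Relative to the adipocyte gene mean of the same array, Adipor2 was 0.23 higher in Senp2-aKO samples without overlap. That mean was itself lowest on Senp2-aKO array 2 (5.85), where Adipor2 was lowest too. No share over all genes was computed for this measure.

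Around these 10 genes, 11 lists of signalling partners and related genes were read, with 153 different genes (a gene of several lists counts once), of which 142 were measured, 19 rose and 10 fell. Over all genes tested, 7.29% rose and 7.12% fell, and the counts of each list stand beside these shares. Downstream of leptin, of 12 genes 1 rose and 1 fell (median log2 fold change -0.08). With no scaling 0 rose and 6 fell, where 4831 of all 14730 genes fell. Stat3, the factor that carries the leptin signal to the nucleus, rose by 0.62 (SE 0.14, limma adjusted p = 0.0272), and its second probe rose too. Irs1, an insulin receptor substrate, fell by 0.55 (SE 0.15, limma adjusted p = 0.0488), but no probe of it passed over all probes. Leprot, whose gene shares its start region with Lepr, had a log2 fold change of -0.17 (limma adjusted p = 0.196). The calls of Stat3 and Irs1 ended in 5 and 7 of the 8 fits that leave out an array, and that of Stat3 under quantile normalisation too (limma adjusted p = 0.0527).

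Among 11 factors known from the leptin promoter, 3 rose and 1 fell (median 0.12). Cebpd, a C/EBP factor induced early in adipogenesis and by glucocorticoids, was 2.49-fold higher (log2 fold change 1.32, SE 0.15, limma adjusted p = 0.00399) and passed in all 8 fits that leave out an array. Cebpb, which encodes C/EBPβ, rose by 0.79 (SE 0.19, limma adjusted p = 0.0332), and Fosl2, an AP-1 factor, by 0.76 (limma adjusted p = 0.0337). Hif1a, the hypoxia factor, fell by 0.49 (limma adjusted p = 0.0270). These 3 calls ended in 5, 6 and 5 of the 8 fits that leave out an array.

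Of 12 genes for adiponectin assembly and signalling, 0 passed in limma (1 at an unadjusted p under 0.05, median 0.04), Cdh13, which encodes the adiponectin-binding T-cadherin, having a log2 fold change of 0.05 (limma adjusted p = 0.806). Under quantile normalisation, another background correction, the filter on all 8 arrays, array weights or the replicate block, 1 of the 12 rose. The same count came without Senp2-aKO array 3, and with no scaling 5 of the 12 fell. Of the 3 measured of 4 resistin-binding genes, 0 passed in limma (1 at an unadjusted p under 0.05, median 0.26), among them Tlr4 at 0.26 (limma adjusted p = 0.238). With another background correction, array weights or no scaling, 1 of the 3 fell.

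The receptors of chemerin moved in both directions. Of 10 receptor and protease genes 1 rose and 3 fell (median -0.08). Gpr1, another chemerin receptor, rose by 0.97 (SE 0.21, limma adjusted p = 0.0211). Cmklr1, the main signalling receptor, fell by 0.69 (SE 0.17, limma adjusted p = 0.0345), and Ccrl2, which binds chemerin without signalling, fell by 0.80 (SE 0.20, limma adjusted p = 0.0350). Ctsl, a lysosomal protease, fell by 0.82 (limma adjusted p = 0.0478). The fits without control 3 and without Senp2-aKO array 1 ended the call of Gpr1 (adjusted p = 0.0555 to 0.0603 in limma), and those of Cmklr1, Ccrl2 and Ctsl ended in 6, 7 and 6 of 8 such fits. The replicate block ended the calls of Gpr1, Cmklr1 and Ctsl as well. With another background correction Cmklr1 was at -0.23 (limma adjusted p = 0.106).

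In NAD metabolism around Nampt, of 16 measured genes 2 rose and 1 fell (median 0.10). Nmrk1, a nicotinamide riboside kinase, fell by 0.74 (SE 0.14, limma adjusted p = 0.0150) and passed in all 8 fits that leave out an array. Nmrk2, its muscle-enriched counterpart, was higher by 3.34 (SE 0.68, limma adjusted p = 0.0186), from a probe that was well above background on 1 of 4 control and 4 of 4 Senp2-aKO arrays. Cd38, which breaks down NAD, rose by 0.65 (SE 0.13, limma adjusted p = 0.0166). The calls of Nmrk2 and Cd38 ended without control 1 (adjusted p = 0.0584 and 0.0567 in limma). That of Cd38 also ended with the replicate block and with no scaling. The skeletal muscle markers given above rose in the same samples as Nmrk2.

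For lipocalin-2, 2 of 4 partners were measured. Slc22a17, reported as its receptor, fell by 0.58 (SE 0.11, limma adjusted p = 0.0156, and 0.0537 without control 1), and Mmp9, which lipocalin-2 binds, had a log2 fold change of 0.43 (limma adjusted p = 0.421). The call of Slc22a17 also ended with the replicate block. In the lipoprotein lipase system around Angptl4, of 12 measured genes 1 rose and 1 fell (median -0.05). Angptl8, an inhibitor of the lipase that feeding and insulin raise, fell by 1.55 (SE 0.31, limma adjusted p = 0.0176), and Apoc3 was higher by 1.15 (SE 0.31, limma adjusted p = 0.0438). The call of Angptl8 ended without control 3 (limma adjusted p = 0.0522), and that of Apoc3 in 7 of 8 fits that leave out an array. Lpl itself was at -0.36 (limma adjusted p = 0.274).

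Of 12 targets of PPAR factors or glucocorticoids, 7 rose and 0 fell (median 0.66), and 4 rose without control 1. With quantile normalisation, normexp background correction, array weights or the replicate block, 7 rose and 1 fell. The same counts came with the filter on all 8 arrays and with the mean of all probes. With no scaling 5 rose and 2 fell, and without Senp2-aKO array 3 the counts were 6 and 1. Pdk4, a brake on glucose oxidation, rose by 2.21 (SE 0.23, limma adjusted p = 0.00367), and Fkbp5, a co-chaperone of the glucocorticoid receptor, by 2.53 (SE 0.35, limma adjusted p = 0.00639). Klf9, a factor that glucocorticoids induce, rose by 0.77 (limma adjusted p = 0.0102). Fabp3, a fatty acid carrier of muscle and brown fat, rose by 5.51 (SE 0.85, limma adjusted p = 0.00832), in samples where the muscle and brown adipocyte lists were also higher. These 4 calls held in all 8 fits that leave out an array.

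Among 37 measured of 41 other adipokines and fat-secreted proteins, 3 rose and 3 fell (median -0.09). Dpp4, a peptidase shed from adipose cells and a marker of progenitors, rose by 1.23 (SE 0.20, limma adjusted p = 0.0104), and Ptgds, a prostaglandin D synthase, by 1.94 (SE 0.37, limma adjusted p = 0.0160). Of 5 adipose progenitor markers, 1 rose, which was Dpp4 itself, and 1 fell, and the median log2 fold change was 0.21. Fndc5, the precursor of irisin, which muscle makes in quantity, rose by 2.02 (SE 0.45, limma adjusted p = 0.0245), again beside the higher muscle list. Besides Angptl8, the genes that fell were Sfrp5, a Wnt antagonist, by 1.22 (limma adjusted p = 0.0289), and Ccl2, a monocyte chemoattractant, by 2.13 (limma adjusted p = 0.0455), both named after their values were seen. Dpp4 and Ptgds passed in all 8 fits that leave out an array. The calls of Fndc5, Sfrp5 and Ccl2 ended in 4, 5 and 6 of them. The Ptgds probe was well above background on 3 of 4 control and 4 of 4 Senp2-aKO arrays. Its log2 fold change ran from 0.79 to 1.94 over the 7 other settings that tested it. That of Fndc5 ran from 1.11 to 2.23 over 8 other settings. In the 20 adipocyte genes, 1 rose and 0 fell (median -0.03), but 4 fell under quantile normalisation, 4 with normexp background correction, 4 (with 4 that rose) with array weights and 7 with no scaling. Without Senp2-aKO array 2, 4 of them fell, and without Senp2-aKO array 3, 3 rose and 3 fell. The gene that rose was Pnpla2, the first lipase of triglyceride breakdown, by 0.52 (limma adjusted p = 0.0299), a call that ended under quantile normalisation (0.29, limma adjusted p = 0.0933) and in 6 of 8 fits that leave out an array.

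**Figure D5:**
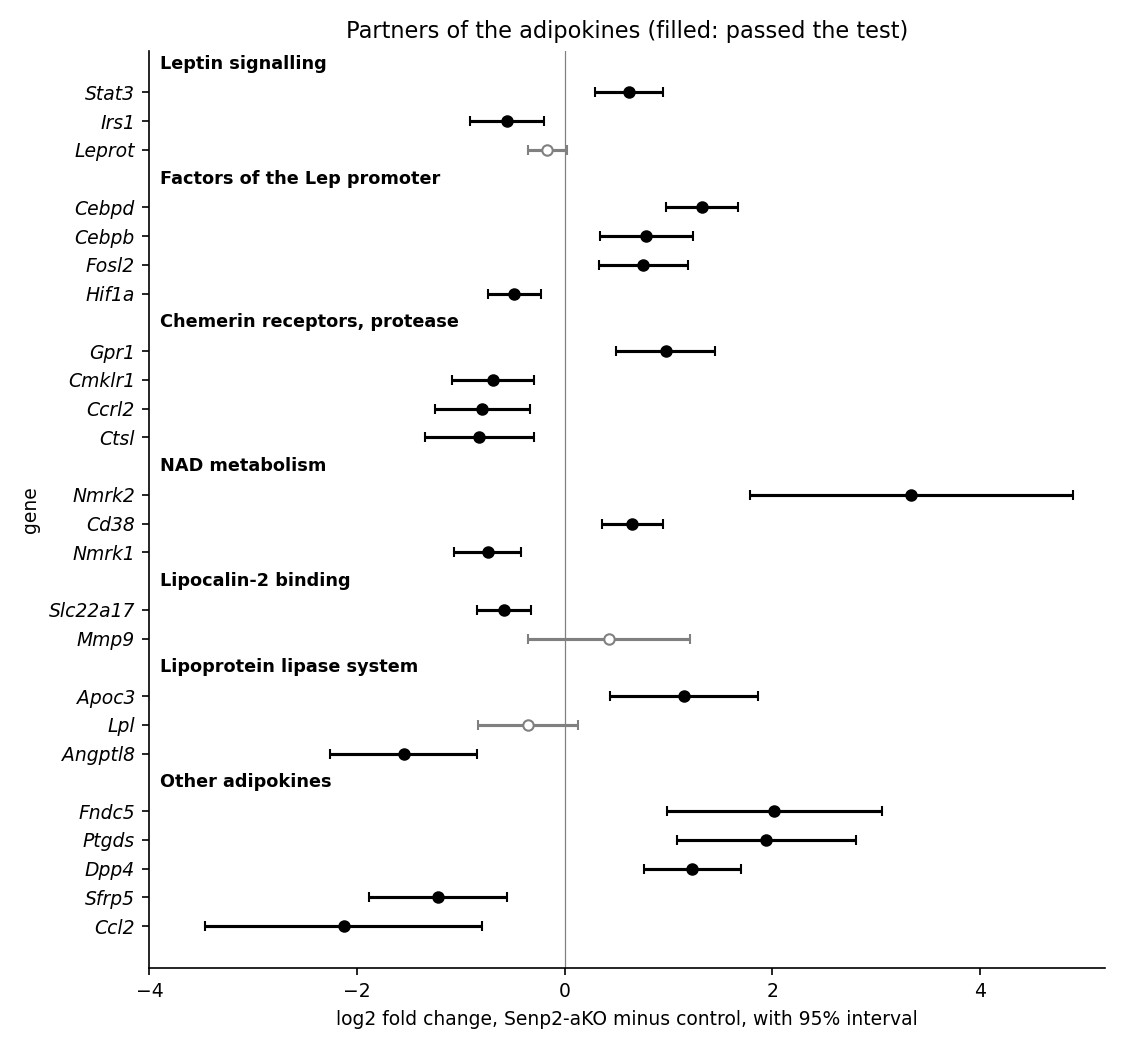
Log2 fold change, Senp2-aKO minus control (x axis), with the 95% interval from limma (n = 4 arrays per group), of named partner genes grouped by their list. Filled points passed the test and open points did not, with Cebpd at 1.32, Nmrk2 at 3.34 and Ccl2 at -2.13.

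The 5 genes whose course over the 8 arrays was most like that of Lep were Dnmt3l, Ddr1, Cass4, Unc119 and Map6, with a mean absolute difference of 0.148 to 0.175 log2 units after each gene was centred on its own mean, where the median over all genes was 0.919. All 5 fell, by 1.53 to 1.96, and a second Map6 probe, at -0.59, did not pass. The Cass4 probe was well above background on 4 of 4 control arrays but 1 of 4 Senp2-aKO arrays. Its log2 fold change ran from -2.23 to -0.52 over the 7 other settings that tested it. Most like Nampt were Atxn7, Cdc37l1, Slc43a3, B4galt1 and Garre1 (0.0655 to 0.0826, median over genes 0.465), which rose by 0.74 to 0.86, though another Atxn7 probe was at -0.11. Most like Lcn2 were Inmt, Galnt15, Epop, Tmie and Niban2 (0.128 to 0.172, median over genes 0.736), all of which rose except Tmie (limma adjusted p = 0.0569). Most like Angptl4 were Tgm2, P2rx3, Hyal2, Lrrc58 and Mrpl38 (0.0577 to 0.0651, median over genes 0.302), of which Tgm2 (0.48) and Lrrc58 (0.47) rose and the others did not pass. The calls of Tgm2, Lrrc58 and Epop ended with no scaling, and that of Atxn7 with the mean of all its probes. Of the likeness genes that passed, Ddr1, Cass4, Cdc37l1, Slc43a3, B4galt1, Garre1, Galnt15, Niban2 and Tgm2 did so in all 8 fits that leave out an array, and the others did not. With 8 arrays in 2 groups, this likeness rests mainly on the difference between the groups.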

How the data were processed

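Total RNA of inguinal fat (0.5 µg, Cy3) was read on 8 arrays. The scanned spots were quantified by Agilent Feature Extraction 11.5.1, per the submitters' processing notes, with background subtraction and removal of spatial trends, per the file headers. The deposited processed signals, median signals and median local backgrounds are intensity values with no scaling between arrays, and the deposited flags per spot are of the unit other, 0 or 1. A deposited matrix of normalised values was left out, as 8 of its columns are samples under names found in no label.

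Log2 processed signals were set relative to the 75th percentile of each array, and the spots of a probe averaged without control spots (3671 of 62976) and outliers (269 probes had no usable spot). The 30508 probes well above background on at least 4 of 8 arrays were kept. Names came from RefSeq accessions (table of assembly GRCm38.p6, 27656 probes named, 19231 of them kept), and the probe with the highest mean stood for its gene. Groups were compared with limma 3.58.1 (R 4.3.3, data.table version 1.17.8), with Benjamini-Hochberg adjustment over all genes and a threshold of 0.05. The same fit was run over all kept probes, and probes of a gene were compared by a two-sided exact permutation test over 70 assignments. The fit was tested on simulated data. The number of arrays, 4 per group, limits the precision.

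The members and gene lists were chosen with earlier results of these data known. Named genes are the members, up to 4 passing genes of each list by smallest adjusted p, up to 1 receptor or partner that did not pass, the 5 genes most alike to each passing member, and Senp2. Alternatives were quantile normalisation, normexp background correction (offset 50), no background filter, a filter on all 8 arrays, the mean of all probes of a gene, array weights, a replicate block, leaving out each array, and, chosen after seeing the data, no scaling.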

Additional observations from a re-analysis of the deposited data

Results flagged for a closer look

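Of 26 groups of 4 arrays over 13 probes of these genes, 2 held an array far from the other 3, where chance gives about 1 in 20 groups. The first is Retn on control 3 (probe A_55_P1984806), at 8.59 where the other controls were at 9.003 to 9.02, and the log2 fold change of Retn without this array was -0.02. The second is the Lepr probe A_55_P2192662 on Senp2-aKO array 2, at -0.78 where the other Senp2-aKO arrays were at -3.19 to -2.89. That array was also highest in Lcn2 and in the lists of neutrophil, T lymphocyte and B lymphocyte markers, and lowest in Lep and in the adipocyte list.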

How the results depend on the processing

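Lep and Nampt passed under all 16 alternatives run, with log2 fold changes of -2.12 to -1.59 for Lep and 0.56 to 0.94 for Nampt. Lcn2 ended with the replicate number as a block (1.41, limma adjusted p = 0.0572), and lay between 1.10 and 1.58 in fits that leave out an array, of which 4 ended the call. Angptl4 did not pass under quantile normalisation (0.18), normexp (0.34), no filter on background (0.42), the block (0.42) or no scaling (0.15), and lay between 0.36 and 0.51 in fits that leave out an array, of which 7 ended the call. The cause was not tested.

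Of the 10 genes, the block left 1 higher in place of 3, fits that leave out an array 1 to 3, and quantile normalisation and no scaling made 2 lower in place of 1. Over all genes the counts higher and lower were 1074 and 1049, 1831 and 1932 with array weights, 653 and 4831 with no scaling, 689 lower with no filter, 569 lower with the replicate block, and 434 to 1356 higher and 280 to 1472 lower when an array was left out. Whether equal replicate numbers pair the samples is not stated by the labels. Deviations of same-numbered samples correlated at -0.02, -0.08, 0.14 and 0.11. These values cannot decide it, since samples of different numbers were not compared.

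Signs turned among values that had not passed. Lepr was at -0.013 with normexp and -0.24 with no scaling, at 0.81 with the mean of its kept probes, and at -0.11 to 0.22 in fits that leave out an array. Adipoq was at -0.11 with quantile normalisation and -0.16 with no scaling, and Adipor2 at -0.10 and -0.12. Adipor1 was at -0.0020 with quantile normalisation, -0.036 with normexp, -0.25 with no scaling and -0.041 to 0.12 when an array was left out. Retn was at -0.11 with quantile normalisation, -0.19 with no scaling and -0.035 to 0.18 when an array was left out. Cdh13 was at -0.22 with no scaling and -0.024 to 0.13 when an array was left out, and Tlr4 at -0.011 with no scaling. Among partner and most alike genes named, calls of Stat3, Cebpb, Fosl2, Cd38, Apoc3, Pnpla2, Epop, Tgm2 and Lrrc58 ended with no scaling, those of Irs1, Cebpb, Fosl2, Cmklr1, Ccrl2, Ctsl, Apoc3, Ccl2 and Epop with no filter on background, and those of Irs1, Cebpb, Fosl2, Cmklr1, Gpr1, Ctsl, Cd38, Slc22a17, Apoc3, Epop, Tgm2 and Lrrc58 with the block, under which 2 of 6 neutrophil markers passed. Signal over background leaves the Lepr probe A_66_P130517 untested.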
